A study of Mus musculus with 31 samples.

Results

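Of the 13 single-neuron libraries labelled as medial olivocochlear (MOC) neurons, 5 held fewer than 10 reads of the genes that define a cholinergic neuron and 8 held 10 or more. The members were chosen by the sum of raw reads over Chat, Slc18a3 and Slc5a7. The 5 libraries under 10 reads, called poor below, are MOC cells 4, 8, 9, 12 and 13, and the 8 others, called rich, are MOC cells 1, 2, 3, 5, 6, 7, 10 and 11. The whole series holds 31 libraries of 1 cell each, the other 18 being lateral olivocochlear (LOC) neurons. Because the measured values themselves set the sides, the levels of the 3 genes are given as a description and support nothing.

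MOC neurons send axons to the cochlea and release acetylcholine onto the outer hair cells, which lowers the gain of the hearing organ. A cholinergic neuron makes acetylcholine with choline acetyltransferase (Chat), loads it into vesicles with the vesicular transporter (Slc18a3) and recovers choline with the high-affinity transporter (Slc5a7). The ventral nucleus of the trapezoid body, where MOC cell bodies lie, also holds many neurons that release glycine or GABA.

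The neurons were recorded by patch clamp in acute brainstem slices, and the cytoplasm was then drawn into the pipette. Libraries were made by Smart-seq2, which amplifies full-length cDNA by PCR, and a Nextera kit, and were read in pairs of 75 bases. Every label gives the genotype as wild-type and the treatment as RNA-seq after patch clamp, the same on both sides. The design text of the series names the mice as ChAT-IRES-Cre; tdTomato and says that red neurons were recorded, in the ventral nucleus of the trapezoid body for MOC and in the lateral superior olive for LOC. Cre is thus driven by the Chat gene, and a cell once turned red by Cre stays red. No age and no animal is named, so cells of a side may share an animal. Each side is therefore described as 1 sample, no difference was tested, and every SD is a spread between cells.

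Levels are CPM, the count of a gene divided by the total of its library over mouse genes and multiplied by 1000000. Poor values are always listed in the order of cells 4, 8, 9, 12 and 13, and rich values by their lowest, median and highest. The difference of a gene is its mean log2(CPM + 1) over the poor cells minus that over the rich cells, a scale that understates differences of low genes. A size rule with 3 conditions picks out large differences. One side must reach 2 times the summed CPM of the other, its mean log2(CPM + 1) must exceed the other by 1 or more, and 60% or more of its libraries must hold a read. Among the 16552 genes with a read in at least 4 MOC libraries, 1695 met it for the poor side (10.2%) and 2034 for the rich side (12.3%), together 22.5%. Counts of list members are to be read against these shares.

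The poor libraries held 622287 to 1449411 counts and the rich libraries 598028 to 2627174, so depth overlapped widely. Mitochondrially encoded genes took 1.65% to 32.5% of rich and 1.56% to 20.5% of poor libraries. Every MOC library also held transcripts of glial cells. The 10 oligodendrocyte markers took 0.43, 3.81, 7.61, 7.69 and 0.036% of the counts of the poor cells and 0.11% to 12.3% of those of the rich cells, with the highest shares in cells 6 and 7. The summed CPM of the 10 microglia markers was 537, 9479.7, 140.2, 3241 and 163 in the poor cells and 40.7 to 1939 (median 597) in the rich cells. Cells 8 and 12, each with reads of all 10 markers, thus stood above all rich cells, whereas cells 9 and 13 were near the lowest rich values and cell 13 lacked reads of 6 of the 10.

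**Figure D1:**
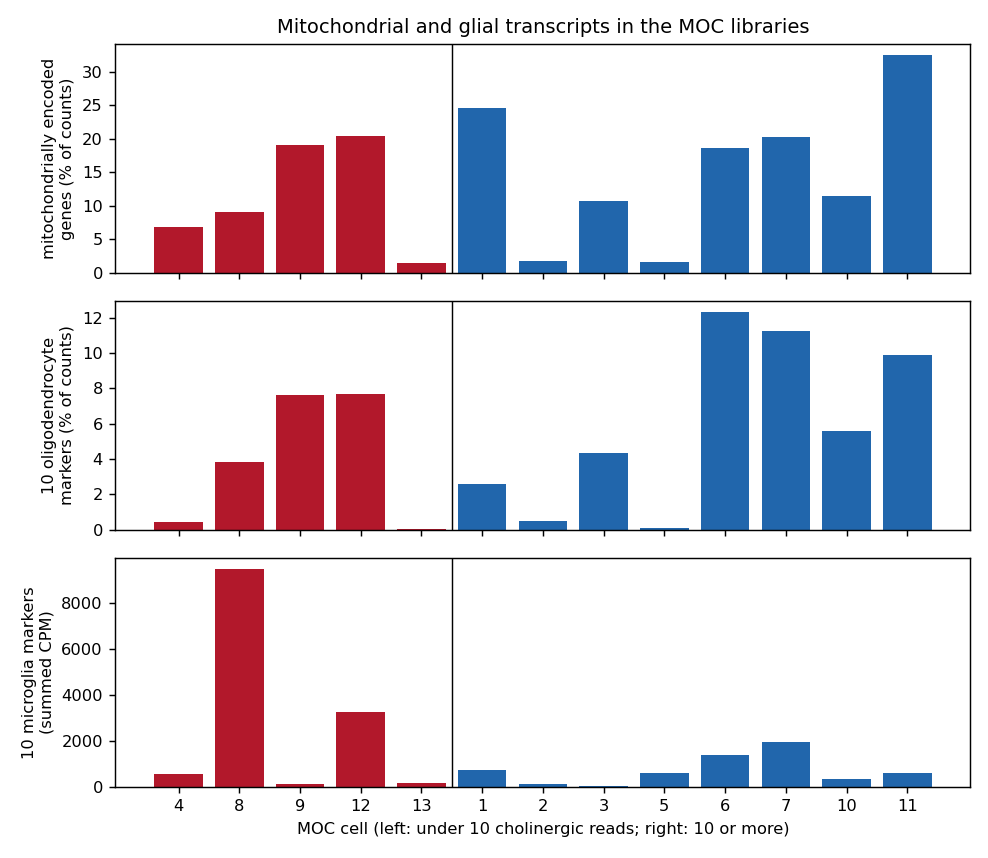
Share of counts in mitochondrially encoded genes (%), share in 10 oligodendrocyte markers (%) and summed CPM of 10 microglia markers, 1 bar per MOC cell, with the 5 poor cells in red on the left and the 8 rich cells in blue on the right. The first 2 measures span similar ranges on both sides, while the microglia bars of cells 8 and 12 are the highest of the 13.

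The reads that set the sides were few on the poor side. Summed over the 3 genes, the poor cells held 3, 0, 6, 9 and 1 reads, and the rich cells 10 to 997 reads (median 244.5). Just inside the threshold was cell 12 with 9 reads and just outside it cell 11 with 10 reads, followed by cell 7 with 28 reads. On the CPM scale this order was not kept, since cell 12 reached 10.97 CPM, cell 7 10.7 CPM and cell 11 10.6 CPM. The split thus has no gap at its edge, although 6 of the 8 rich cells held 45 reads or more.

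Chat (chromosome 14 at 32408203 to 32465989, minus strand, GRCm38, ENSMUSG00000021919) gave 2 reads in cell 4, 1 in cell 12 and none in cells 8, 9 and 13, while rich cells held 0 to 925 (median 8.98) CPM. Slc18a3 (chromosome 14 at 32462438 to 32464850, minus strand, ENSMUSG00000100241) had 1.61, 0, 0, 6.10 and 1.44 CPM in the poor cells and 0 to 342 (median 214) CPM in the rich cells. Slc5a7 (chromosome 17 at 54273590 to 54299034, minus strand, ENSMUSG00000023945) had 0, 0, 6.05, 3.66 and 0 CPM in the poor and 6.09 to 518 (median 48.6) CPM in the rich cells. The 3 genes did not move as 1 unit among the rich cells. Cells 1 and 6 had over 100 reads of Slc18a3 and none of Chat, whereas cell 7 had 12 reads of Chat and none of Slc18a3. Slc5a7 was the only 1 of the 3 with a read in all 8 rich cells. Slc18a3 lies inside the Chat gene on the same strand, and the antisense gene Gm2990 overlaps Chat, so reads of these genes cannot always be told apart in libraries that keep no strand.

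**Figure D2:**
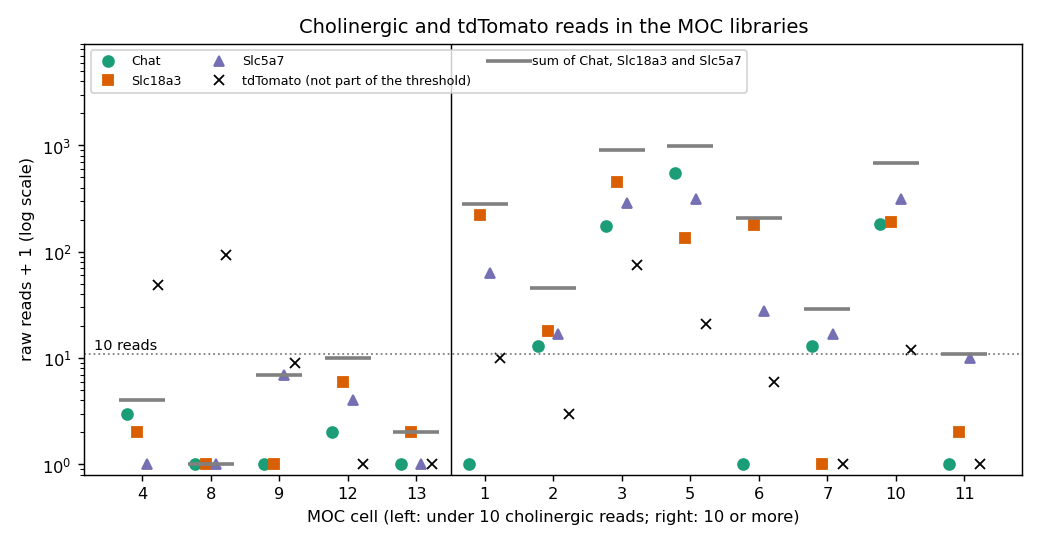
Raw reads plus 1 (log scale) of Chat, Slc18a3, Slc5a7 and the added tdTomato sequence in each MOC cell, with a grey bar for the sum of the first 3 and a dotted line at 10 reads. The poor cells on the left hold 0 to 9 cholinergic reads, yet cells 8 and 4 hold 93 and 48 tdTomato reads and rich cell 3 holds 74.

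The tdTomato sequence, the red reporter, was counted on both sides. The poor cells held 48, 93, 8, 0 and 0 reads of it, or 77.1, 64.2, 8.07, 0 and 0 CPM, and the rich cells 0 to 55.8 CPM (median 7.78). Reads were found in 3 of 5 poor and 6 of 8 rich cells. The 2 highest levels of the 13 belonged to poor cells 4 and 8, which held 3 and 0 cholinergic reads. The counts also cover other added sequences, and those of DsRed and hspCas9 held reads in all 13 MOC libraries (1 to 227 and 2 to 44). What gives reads in such sequences was not tested, so a few tdTomato reads are not taken here as a mark of the transgene.

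Other genes of cholinergic neurons were lower on the poor side in part. Of 9 measured members, 4 met the size rule for the rich side (Ache, Slc10a4, Chrna3 and Chrm2) and 0 for the poor side, and 8 of 9 differences were below 0. The median difference was -1.02, against -0.08 over all measured genes. Slc10a4, which encodes a vesicle protein found with Slc18a3 in cholinergic neurons, had 0, 0.69, 1.01, 0 and 2.88 CPM in the poor and 0 to 542 (median 8.65) CPM in the rich cells, a difference of -3.42 (mean 0.74 ± 0.81 SD, n = 5 cells, against 4.16 ± 3.75 SD, n = 8 cells). The levels over 100 CPM were those of rich cells 3, 5 and 10, and the sides overlapped because rich cells 6 and 7 had no read. Chrm2, the muscarinic M2 receptor, had 0, 0, 9.07, 4.88 and 0 CPM in the poor and 0 to 120.2 (median 33.5) CPM in the rich cells (difference -2.77). In Chrm2, 5 of the 8 rich cells stood above every poor cell. Chrna3, a nicotinic receptor subunit, was low throughout (0.66 CPM against 3.42 CPM, with 61.3% of the rich reads in cell 3).

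Acetylcholinesterase (Ache), which breaks down acetylcholine, did not follow the split in every cell. Its level was 1922, 2.76, 351, 41.5 and 1.44 CPM in the poor and 39.0 to 2227 (median 569.9) CPM in the rich cells (difference -2.999). Poor cell 4 was above 7 of the 8 rich cells, and poor cells 8 and 13 were below all of them. The summed level was 346 CPM against 726 CPM, a ratio of 2.10 that only just passes the limit of 2, and the size rule failed without any 1 of cells 3, 5, 8, 10, 12 and 13 (difference -1.92 without cell 13). It also failed with TMM or DESeq2 library sizes, which left the direction as it was (-2.77 and -2.91). Ecel1, a neuronal peptidase of the same list, had 1098, 69.0, 0, 4.88 and 0 CPM in the poor and 0 to 709 (median 6.88) CPM in the rich cells. Its highest level was again that of cell 4.

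Of 12 measured transcription factors linked to olivocochlear and facial motor development, 2 met the size rule for the rich side and 0 for the poor side. Isl1 (chromosome 13 at 116298281 to 116309689, minus strand, ENSMUSG00000042258), a LIM homeodomain factor of motor neurons, had no read in any of the 5 poor cells. Among the rich cells it had 0 to 565 (median 44.8) CPM, with 565 CPM in cell 2, 280.2 in cell 10, 97.0 in cell 5 and 88.2 in cell 3. The other 4 rich cells held at most 1 read, so lack of Isl1 reads was shared with part of the rich side. Against the level that 3 counts over the poor side would give (0.66 CPM), the summed rich level of 103 CPM was at least 158-fold higher, and without rich cell 2, which held 54.0% of the rich reads, 52.8 CPM was at least 80.6-fold higher. Gata2, a zinc finger factor, had 3.21, 0, 0, 0 and 1.44 CPM in the poor and 0 to 141 (median 4.94) CPM in the rich cells (difference -2.70). Its relative Gata3 had 453, 2.76, 63.5, 2.44 and 1.44 CPM in the poor and 1.14 to 231 (median 25.0) CPM in the rich cells, with cell 4 the highest of all 13. Phox2a, a factor of cranial motor neurons, reached 148 CPM in cell 4 and at most 11.2 CPM in the rich cells.

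Transcripts of inhibitory transmission were present on both sides, and the highest levels of Gad1, Gad2 and Slc6a5 were those of poor cells. Of the 6 members described, Gad1, Gad2 and Slc6a5 met the size rule for the poor side and 0 for the rich side. The median difference of the inhibitory transmitter list was 0.47, against -0.08 over all measured genes, and -0.61 without cells 8 and 9, with 3 differences above 0 and 3 below, so that the list as a whole showed no direction. Its summed level was 1019, 3089.5, 1983, 487 and 11.5 CPM in the poor cells and 251 to 598 CPM (median 477) in the rich cells. Poor cells 4, 8 and 9 were above every rich cell, cell 12 lay within the rich range and cell 13 was below every rich cell.

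Gad1 (chromosome 2 at 70553072 to 70602014, plus strand, ENSMUSG00000070880) encodes the larger of the enzymes that make GABA. It had 206, 1689.7, 567.7, 179 and 1.44 CPM in the poor cells and 29.0 to 195 (median 76.5) CPM in the rich cells. Cells 4, 8 and 9 were above every rich cell, cell 12 lay within the rich range and cell 13 held 1 read. Summed, this was 718 CPM (95% Poisson interval 694 to 743) against 99.4 CPM (93.0 to 106), a ratio of 7.23. The mean log2(CPM + 1) was 7.27 ± 3.59 SD (n = 5 cells) against 6.25 ± 0.97 SD (n = 8 cells), a difference of 1.02 that is smaller than the SD of the poor cells. Cell 8 held 74.5% of the poor reads. The size rule failed without any 1 of cells 2, 4, 5, 8, 9, 11 and 12, with a difference of 0.16 without cell 8 and 0.55 without cell 9. Without both cells 8 and 9 the difference was -0.76, and after thinning all libraries to equal depth it was 0.99, also short of the rule. The rule also failed with the threshold at 5, 20 or 50 reads or at 10 CPM, with differences of -0.09, 0.58, 0.17 and 0.83. Cells 8 and 12 are also the highest in microglia markers, and without them and cell 7 the difference was -0.09. That set also lacks the 74.5% of the poor reads held by cell 8, so the value does not isolate the microglia markers. Cell 9 had 567.7 CPM of Gad1 and 140.2 CPM of microglia markers. The part of microglia in the Gad1 levels was not tested.

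Gad2 (chromosome 2 at 22622205 to 22693874, plus strand, ENSMUSG00000026787), the second GABA-making enzyme, had 617, 482, 416, 70.7 and 0 CPM in the poor cells and 2.23 to 105 (median 56.4) CPM in the rich cells. The same cells 4, 8 and 9 exceeded every rich cell, and cell 13 had no read. The summed levels were 339 CPM against 52.1 CPM and the difference 1.47 (6.61 ± 3.90 against 5.14 ± 1.71 SD). Without cell 4, which had the highest level, the difference was 0.80, and it was also under 1 without cell 2, 8 or 9 (0.98, 0.89 and 0.95). Without both cells 8 and 9 it was 0.0036, and without the 3 libraries highest in microglia markers 0.95. With the threshold at 5 or 50 reads the difference was 0.46 and 0.25, short of the rule. At 20 reads or 10 CPM it was 1.45 and 1.47, and the rule was met.

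Slc6a5 (chromosome 7 at 49910146 to 49963856, plus strand, ENSMUSG00000039728), the glycine transporter of glycinergic neurons, had 40.2, 817, 332, 35.4 and 0 CPM in the poor cells and 0 to 141 (median 20.2) CPM in the rich cells. Only cells 8 and 9 stood above every rich cell. Rich cell 7 held 76.3% of the rich reads, and without it the summed rich level was 17.9 CPM instead of 53.7 CPM. The summed poor level was 342 CPM, or 122 CPM without cell 8, and the difference was 1.75, or 0.76 without cell 8. Without both cells 8 and 9 the difference was -0.46. With the threshold at 5 reads it was 0.48, short of the rule, which was met at 20 reads, 50 reads and 10 CPM. Cells 8 and 9 were thus high in Gad1, Gad2 and Slc6a5 together, while cell 4 was high in Gad2 and moderate in Slc6a5.

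The vesicular transporter Slc32a1, which loads both GABA and glycine, did not follow these genes. Its level was 20.9, 1.38, 26.2, 37.8 and 8.63 CPM in the poor and 6.62 to 32.9 (median 11.5) CPM in the rich cells, and cell 8 was the lowest of the 13. Per kilobase of exon, cell 8 had 221 CPM of Gad1, 113 of Slc6a5 and 0.49 of Slc32a1, and cell 9 had 74.3, 46.1 and 9.37. Abat, the enzyme that degrades GABA, had 132, 97.3, 526.3, 159 and 1.44 CPM in the poor and 129 to 543 (median 187) CPM in the rich cells, and its difference of -1.49 was -0.25 without cell 13. Slc6a11, a GABA transporter of astrocytes, had 115 CPM in cell 9 and at most 24.3 CPM in any rich cell. Astrocyte markers summed to 4748 CPM in cell 9, inside the rich range of 1197 to 6434 CPM, and their part in the Slc6a11 value was not tested.

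**Figure D3:**
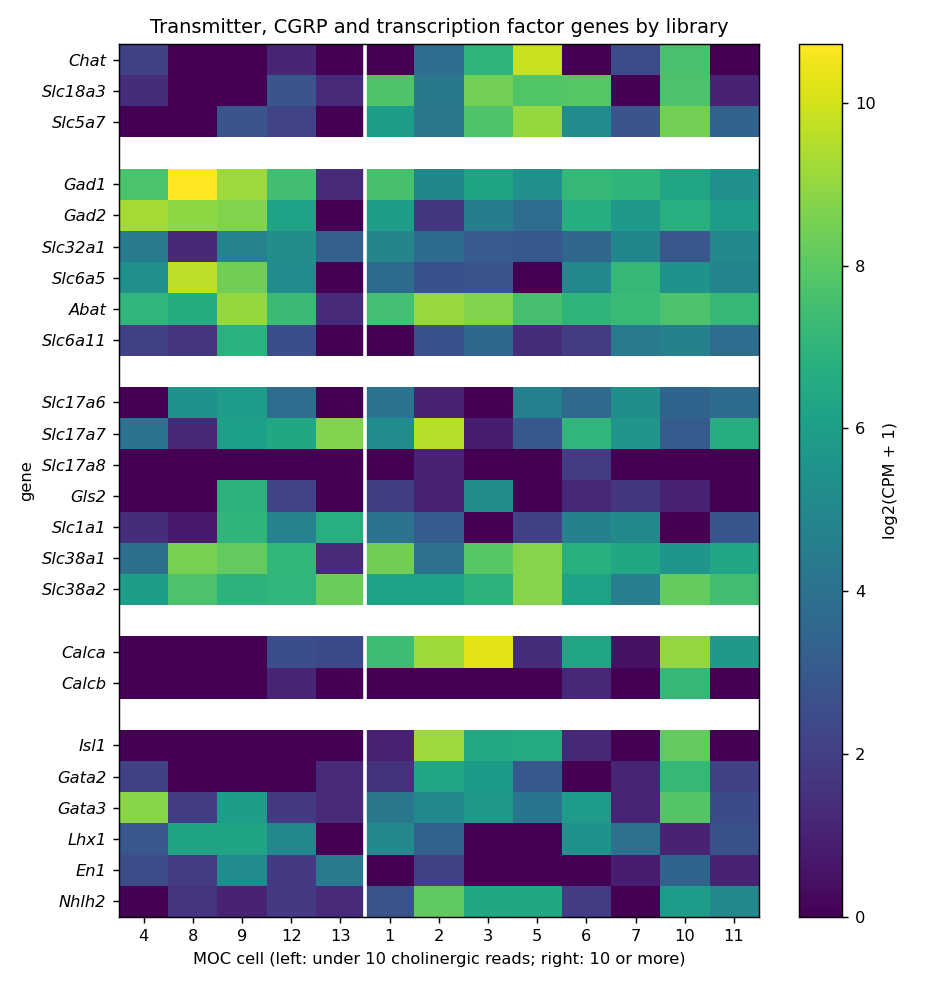
Level of each gene as log2(CPM + 1), from dark (0) to yellow, in each MOC cell (columns, poor cells left of the white line), with genes grouped as cholinergic, inhibitory, glutamatergic, CGRP and transcription factor genes. Cells 8 and 9 are bright in Gad1, Gad2 and Slc6a5 and dark in Calca and Isl1, and cell 13 is dark in both the cholinergic and the inhibitory block.

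Of 10 measured factors of inhibitory lineages, 4 met the size rule for the poor side (En1, Lhx1, Foxp1 and Tal1) and 0 for the rich side, with a median difference of 0.56. En1, a homeodomain factor of ventral inhibitory interneurons, had 4.82, 2.76, 36.3, 2.44 and 20.1 CPM in the poor and 0 to 9.93 (median 0.38) CPM in the rich cells (difference 2.24). A read of En1 was found in 5 of 5 poor and 4 of 8 rich cells, or in 5 and 3 after thinning all libraries to 598028 counts. En1 missed the size rule with a pseudocount of 10 (0.80) and with the threshold at 5 reads (1.51). Its level in cell 4 was at the floor of 3 counts (4.82 CPM) and that in cell 12 was under it (3.66 CPM). Lhx1 had 6.43, 75.9, 76.6, 30.5 and 0 CPM in the poor and 0 to 42.9 (median 7.12) CPM in the rich cells, highest in cells 8 and 9, and its difference of 1.38 was 0.84 without cell 8, 0.83 without cell 9 and 0.99 without cell 3 or cell 5. Foxp1 had 8.03, 165, 0, 42.7 and 132 CPM in the poor and 0 to 37.7 (median 11.2) CPM in the rich cells, and its difference of 1.35 was 0.66 without cell 8, 0.88 without cell 10 and 0.74 without cell 13. Tal1 rested on cell 8, which held 95.2% of the poor reads, with a summed poor level of 31.7 CPM, or 2.24 CPM without that cell, against 3.09 CPM in the rich cells.

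Glutamatergic transcripts did not separate the sides. Of the 6 measured members described, Slc1a1 met the size rule for the poor side and 0 for the rich side, and the median difference was 0.23. The list summed to 96.4, 629, 771, 399 and 839 CPM in the poor and 228 to 909.7 CPM (median 388) in the rich cells. Slc17a7 (chromosome 7 at 45163949 to 45176142, plus strand), the vesicular glutamate transporter VGLUT1, had 16.1, 1.38, 65.5, 84.1 and 413 CPM in the poor and 0.75 to 731 (median 42.0) CPM in the rich cells. Its highest levels were 731 CPM in rich cell 2 and 413 CPM in poor cell 13. Slc17a6, or VGLUT2, had 0, 43.5, 58.5, 13.4 and 0 CPM in the poor and 0 to 39.2 (median 12.4) CPM in the rich cells, and cells 8 and 9, the highest in Gad1 and Slc6a5, also held its highest values. Slc17a8, or VGLUT3, had no read in the poor cells, which allows up to 0.66 CPM on that side, and 3 reads in all in rich cells 2 and 6.

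The remaining glutamatergic genes varied by cell. Slc1a1, a neuronal glutamate transporter, had 1.61, 0.69, 127, 25.6 and 108 CPM in the poor and 0 to 33.5 (median 7.09) CPM in the rich cells. Its difference of 1.37 rested on cells 9 and 13 and was 0.66 and 0.71 without them, and 0.98 without rich cell 3 or 10. Gls2, a glutaminase, was high in cell 9 alone on the poor side (117 CPM, 97.5% of the poor reads) and reached 37.7 CPM in rich cell 3. It overlaps Spryd4 on the other strand. The glutamine carriers Slc38a1 and Slc38a2 had differences of -0.99 and 0.41, and in cell 13 Slc38a1 stood at 1.44 CPM and Slc38a2 at 317 CPM.

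Among 9 measured factors of glutamatergic lineages, 2 met the size rule for the rich side (Barhl1 and Nhlh2) and 1 for the poor side (Lmx1b, at 2.62 CPM against 0.55 CPM, with a difference of 1.10, and of 0.87 and 0.82 without cell 12 or cell 13). Nhlh2, a neuronal basic helix-loop-helix factor, had 0, 2.07, 1.01, 2.44 and 1.44 CPM in the poor and 0 to 272 (median 45.1) CPM in the rich cells. Above every poor cell stood 7 of the 8 rich cells, the exception being cell 7 with no read. The difference was -3.43 and met the size rule without each library in turn. Barhl1 reached 19.1 CPM in rich cell 11 and at most 2.44 CPM in the poor cells. Of 9 monoamine genes, Ddc, the decarboxylase that makes dopamine and serotonin, met the rule for the rich side (15.1 CPM against 65.0 CPM), and Slc6a4 for the poor side at low levels (4.15 CPM against 0.44 CPM, with a difference of 1.03, and of 0.35 without cell 12, which held most of its reads). The call of Slc6a4 also ended without any 1 of cells 3, 4, 5, 7, 8, 10 and 11.

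Calca (chromosome 7 at 114631478 to 114636357, minus strand, ENSMUSG00000030669), the gene of the peptide CGRP, had the widest difference in mean log2(CPM + 1) among the genes given here. The poor cells had 0, 0, 0, 4.88 and 4.32 CPM, or 0, 0, 0, 4 and 3 reads. The rich cells had 0.38 to 1228 (median 124) CPM, with 1228 in cell 3, 590.2 in cell 2, 506 in cell 10, 168 in cell 1, 80.4 in cell 6 and 54.1 in cell 11. Thus 6 of the 8 rich cells were above every poor cell, and the sides overlapped through cells 5 and 7 with 1 read each. Summed, the poor side had 1.53 CPM (95% Poisson interval 0.61 to 3.15) and the rich side 320.3 CPM (309 to 332). Cell 3 held 56.2% of the rich reads, and without it the rich level was 165 CPM. The means of log2(CPM + 1) were 0.99 ± 1.36 SD (n = 5 cells) and 6.23 ± 3.60 SD (n = 8 cells), a difference of -5.24, and between -6.07 and -4.67 without each library in turn. Reads were found in 2 of 5 poor and 8 of 8 rich cells, and in the same numbers after thinning. Within the rich side, cells 1, 3, 6 and 10, with 206 to 914 cholinergic reads, had 80.4 to 1228 CPM of Calca. Cell 2, with only 45 cholinergic reads, had 590.2 CPM. Cell 5, with the most cholinergic reads (997), had 1.67 CPM, and cells 7 and 11, with the fewest (28 and 10), had 0.38 and 54.1 CPM. Calcb, its close paralog with which the counting could share reads, had 128 of its 129 rich reads in cell 10. Neither of the 2 measured CGRP receptor parts met the size rule, and Ramp1, a receptor partner protein, had 0, 227, 243, 91.5 and 1.44 CPM in the poor and 5.58 to 482 (median 57.5) CPM in the rich cells.

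Other peptide precursors went in both directions. Of 15 measured neuropeptide genes, Calca and Penk met the size rule for the rich side and Pnoc and Vgf for the poor side. Pnoc, the precursor of nociceptin, had 4.82, 706, 130.1, 1.22 and 0 CPM in the poor and 0 to 7.54 (median 1.02) CPM in the rich cells. Cell 8 held 88.5% of the poor reads, cell 9 followed, and without both cells the difference of 2.77 became -0.04. Vgf, a precursor of several secreted peptides, had 27.3, 261, 270.2, 18.3 and 33.1 CPM in the poor and 1.67 to 79.2 (median 15.1) CPM in the rich cells, again highest in cells 8 and 9. The granule protein Scg2 reached 3533 and 2286 CPM in these cells against a rich maximum of 676 CPM, but 8.03, 69.5 and 0 CPM in the other poor cells. Npy was carried by cell 4 at 567 CPM (91.5% of the poor reads). Penk, the enkephalin precursor, had 0, 2.07, 108, 35.4 and 0 CPM in the poor and 0 to 453 (median 35.3) CPM in the rich cells, without separating the sides. Rich cell 2 held 61.8% of its rich reads, and the summed rich level was 72.5 CPM, or 30.8 CPM without that cell, against 30.4 CPM in the poor cells.

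**Figure D4:**
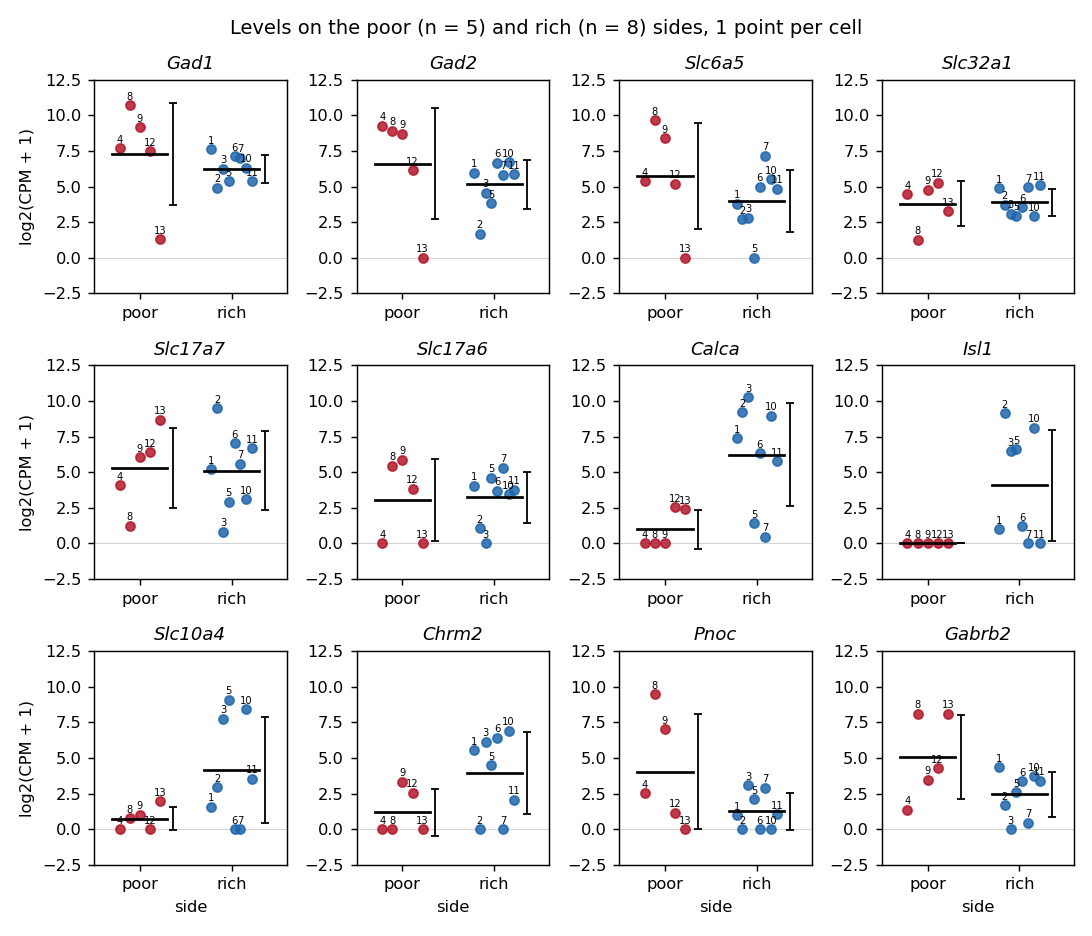
Log2(CPM + 1) of 12 genes in each poor (red, n = 5) and rich (blue, n = 8) cell, numbered by cell, with a black line at the mean and a bar for ± 1 SD over cells. Gad1, Gad2 and Slc6a5 are highest in poor cells 8, 9 or 4 with cell 13 at or near 0, while Calca, Isl1, Slc10a4 and Chrm2 are low in the poor cells and spread upward from 0 or near 0 in the rich cells.

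Receptor genes were described by the same rule. Of 18 inhibitory receptor genes described, 3 met it for the poor side (Gabrb2, Gabrg3 and Slc12a2) and 1 for the rich side (Gabbr2, which missed it without cell 7 or cell 8, with differences of -1.68 and -0.95 in place of -1.89). Gabrb2, a beta subunit of the GABA-A receptor, had 1.61, 275, 10.1, 18.3 and 278 CPM in the poor and 0 to 19.7 (median 7.199) CPM in the rich cells. Gabrg3, a gamma subunit, had 6.43, 77.3, 6.05, 0 and 217 CPM in the poor and at most 2.23 CPM in the rich cells. Cells 8 and 13 carried both genes, although these cells were opposite in Gad1. Of 19 glutamate receptor genes, 4 met the rule for the poor side and 3 for the rich side. Gria2, an AMPA receptor subunit, had 1041, 23.5, 29.2, 184 and 1245 CPM in the poor and 0.75 to 1378 (median 64.3) CPM in the rich cells. Cells 4 and 13 were high, yet rich cell 5 was the highest of all, and the size rule failed without cell 4 or cell 13 (differences 1.54 and 1.48). Grm7, a metabotropic receptor, had reads in cell 12 alone on the poor side (9.76 CPM) and 0 to 493.1 (median 8.10) CPM in the rich cells. The muscarinic receptor Chrm1 stood at 404 CPM in cell 13, and its difference of 1.49 was 0.16 without that cell.

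Of 16 genes described of ion channels for fast firing, Scn4b met the size rule for the rich side and 0 for the poor side. The median difference of the list was -0.88 and 13 of 16 differences were below 0. Scn4b, a sodium channel beta subunit, had 8.03, 0.69, 58.5, 31.7 and 0 CPM in the poor and 5.58 to 141 (median 34.9) CPM in the rich cells (difference -1.95). It missed the size rule without cell 8 or cell 3, at -1.39 and -1.63. The calcium sensor Ncald had 4.82, 148, 41.3, 109.7 and 816 CPM in the poor and 0 to 52.0 (median 21.7) CPM in the rich cells (difference 2.39). Of 10 perineuronal net genes, Ncan and Tnr met the rule for the poor side, with 4.82, 60.7, 114, 45.1 and 386 CPM of Ncan in the poor and 0 to 135 (median 15.9) CPM in the rich cells. Ncan missed the rule without cell 3, 10 or 13, with summed levels of 111 CPM against 50.7 CPM, and 62.1 CPM without cell 13. Cell 13 was the highest of all 13 in Ncald, Ncan and Tnr.

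Genes that most neurons share were counted in every poor cell. The 15 general neuronal genes described summed to 7808, 7439, 8206, 4799.6 and 8747 CPM in the poor and 4137 to 18721 CPM (median 7475) in the rich cells, so the poor sums lay inside the rich range. By gene, 11 of the 15 differences were below 0 and 4 above, with a median of -0.45, against -0.08 over all measured genes. Snap25, a synaptic membrane protein, had 1977, 2179.5, 2284, 1473 and 3026 CPM in the poor and 726 to 6157 (median 2436) CPM in the rich cells. Nefm, a neurofilament of large axons, was the member that met the size rule for the rich side, beside Gap43 for the poor side, at 227, 101, 321, 355 and 532 CPM in the poor and 189 to 3523 (median 1119) CPM in the rich cells. Its difference of -1.88 met the size rule in all 30 alternatives, and it overlaps Nefl on the other strand. The difference of Gap43 was 1.40, and it missed the rule without cell 2, 5 or 8 (0.90, 0.92 and 1.05) and with medians (0.82).

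Of 15 measured immediate early and stress genes, which neurons switch on within minutes of activity or handling, 6 met the size rule for the rich side (Fos, Jun, Egr1, Hspa1a, Nr4a1 and Btg2) and 2 for the poor side (Arc and Dusp1). Nr4a1 had 4.82, 0.69, 4.03, 149 and 0 CPM in the poor and 0 to 278 (median 124) CPM in the rich cells (difference -2.98). Poor cell 12 was above 7 of the 8 rich cells in Nr4a1. Arc, a gene of synaptic plasticity, had 596, 163, 10.1, 17.1 and 206 CPM in the poor and 0 to 129 (median 0) CPM in the rich cells, a difference of 4.67. Fos had 220.2, 195, 126, 685 and 149.7 CPM in the poor and 162 to 1451 (median 644) CPM in the rich cells. The list as a whole showed no direction, with a median difference of 0.07.

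Markers of other cells were compared as well. Among microglia markers 3 of 10 met the size rule for the poor side (Tmem119, Csf1r and Ctss) and among astrocyte markers 4 of 10 for the rich side (Aqp4, S100b, Ndrg2 and Glul). Without cells 7, 8 and 12, the highest in microglia markers, Tmem119, Csf1r and Ctss all missed the rule, with differences of 0.16, -0.23 and 0.77 in place of 1.46, 1.65 and 2.56. Tmem119 also missed it without cell 8 alone (0.43), and Csf1r without cell 4, 8 or 12 (0.94, 0.68 and 0.82). The calls of Glul, Ndrg2 and S100b also ended without single cells, and that of Aqp4 was not recomputed. Without cell 4 the difference of Glul was -0.02 in place of -1.26, and its call also ended without cell 7, 8, 10 or 13. Ndrg2 went from -1.32 to -0.75 without cell 4 and also missed the rule without cell 7 or 8. S100b missed it without cell 4, 6, 8, 11 or 13, with a difference of -2.44, or -1.26 without cell 13. Ctss, a lysosomal protease, had 3.21, 1746, 76.6, 1084 and 35.98 CPM in the poor and 0 to 319 (median 84.8) CPM in the rich cells, high in cells 8 and 12. S100b had 3.21, 249, 591, 755 and 1.44 CPM in the poor and 2.23 to 1434 (median 633) CPM in the rich cells, with cells 4, 13 and rich cell 2 under 5 CPM. None of the 10 oligodendrocyte markers met the rule in either direction, and 9 of 10 differences were below 0. Of 10 blood vessel markers, Flt1 and Pecam1 met the rule for the poor side and Ly6c1 for the rich side, and each call ended without single cells. Pecam1, at 2.07, missed the rule without cell 4, 8 or 12 (0.94 without cell 8), and Flt1, at 1.20, without cell 3, 4, 10 or 12 (0.79 without cell 12). Ly6c1, at -1.07, missed it without any 1 of cells 2, 4, 6, 7, 8, 10, 11 and 13 (-0.68 without cell 7), and was at 1.07 with the threshold at 50 reads. The part of these cells in the differences given above was not tested, beyond the values without the libraries high in their markers.

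Over all measured genes, the sides were fully apart for 6 genes. Every poor cell exceeded every rich cell in 3 genes (0.0181% of the measured genes), and every rich cell exceeded every poor cell in 3 others (0.0181%), of which Slc5a7 is 1 of the genes that set the sides. Gnpda1, a glucosamine phosphate deaminase, had 3.21, 125, 64.5, 13.4 and 1.44 CPM in the poor cells and 1 read in all of the rich cells together, in cell 11. Its lowest poor value, in cell 13, was also 1 read, so these 2 cells differ by depth alone and both lie under the floor of 3 counts. Retreg2, a receptor for the breakdown of endoplasmic reticulum, had 480.5, 542, 218, 149 and 656 CPM in the poor and 0 to 143 (median 77.6) CPM in the rich cells. Sertad2, a transcriptional coregulator, had 35.4, 108, 39.3, 37.8 and 72.0 CPM in the poor and 2.21 to 32.5 (median 18.4) CPM in the rich cells. The gap was also narrow for the others, at 149 against 143 CPM for Retreg2 and 35.4 against 32.5 CPM for Sertad2. The counts depended on the library sizes used. On totals without mitochondrial genes and oligodendrocyte markers, 0 genes were fully apart for the poor side and 3 for the rich side. The authors' normalized values gave 1 and 6, and TMM library sizes 7 and 7.

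In the other direction, Vps37a, a subunit of the endosomal sorting complex ESCRT-I, had 0, 4.14, 6.05, 31.7 and 5.76 CPM in the poor and 37.5 to 577 (median 64.8) CPM in the rich cells. Higd2a, a mitochondrial inner membrane protein, had 14.5, 55.9, 60.5, 102 and 0 CPM in the poor and 106 to 662 (median 182) CPM in the rich cells. Here too the nearest cells were close, and Vps37a overlaps Cnot7 and Mtmr7. Without cell 12, next to the threshold, 63 genes were fully apart in place of 6, and without any other single cell 7 to 30 were.

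**Figure D5:**
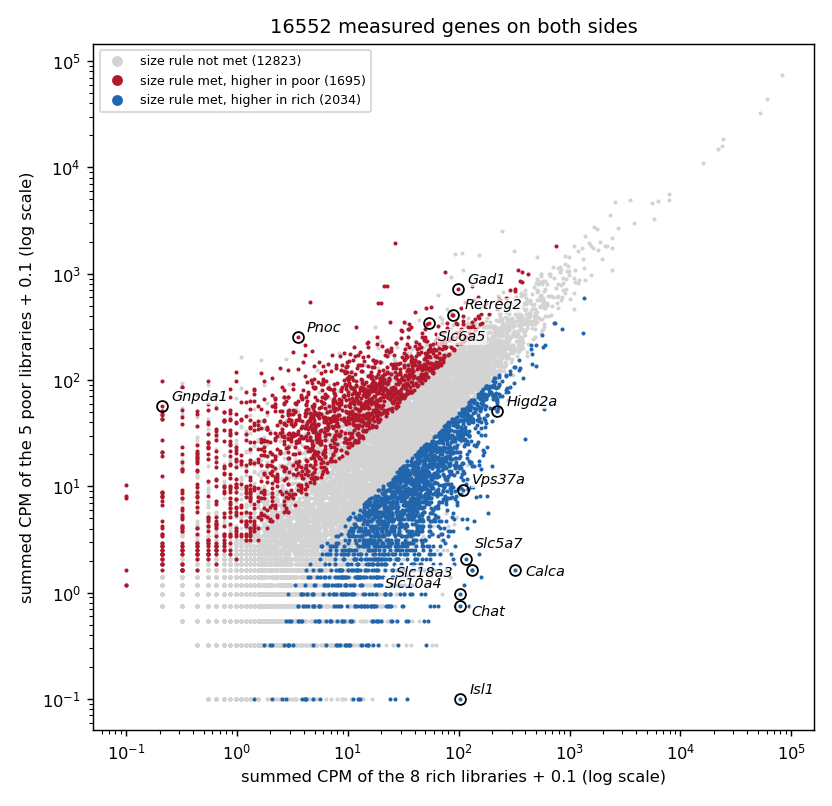
Summed CPM of the 8 rich libraries (horizontal) against that of the 5 poor libraries (vertical) for the 16552 measured genes, both plus 0.1 and on log scales, with genes that met the size rule in red (1695, higher in poor) or blue (2034, higher in rich). Calca, Isl1 and Slc10a4 lie in the lower right beside the 3 genes that set the sides, and Pnoc, Gad1 and Slc6a5 on the side of the poor libraries.

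The next widest differences among genes with a read in every cell of the higher side belonged to Tram1l1, Mal2, Camk1, Agk, Tmem191 and P4ha1 on the poor side, beside Arc. Tram1l1, a protein of the endoplasmic reticulum translocation machinery, had 22.5, 205, 327, 12.2 and 196 CPM in the poor and 0 to 30.8 (median 0.98) CPM in the rich cells. Mal2, a membrane trafficking protein, had 1.61, 215, 135, 6.10 and 554 CPM in the poor and 0 to 26.8 (median 0.38) CPM in the rich cells. Camk1, a calmodulin-dependent kinase, had 487, 351, 171, 48.8 and 341 CPM in the poor and 0 to 256 (median 3.78) CPM in the rich cells, with rich cells 5, 6 and 7 inside the poor range, and it overlaps Ogg1 on the other strand. For Agk, a mitochondrial lipid kinase, cell 4 alone held 61.4% of the poor reads. On the rich side, beside Calca, these were Chp1, Car8, Tmem126a, Hspb8, Sncg and Pcp4l1. Car8, an inactive carbonic anhydrase relative, had 6.43, 0.69, 25.2, 543 and 0 CPM in the poor and 42.2 to 1370.0 (median 207) CPM in the rich cells, and poor cell 12 was above 6 of 8 rich cells. Sncg, or gamma-synuclein, had 999.5, 0, 3.02, 32.9 and 0 CPM in the poor and 8.49 to 1826 (median 237) CPM in the rich cells, with cell 4 above all rich cells but cell 3, and it missed the size rule without cell 3. Pcp4l1, a relative of the calmodulin regulator PEP-19, had 1.61, 24.8, 45.4, 56.1 and 0 CPM in the poor and 40.3 to 1241 (median 223) CPM in the rich cells.

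The poor cells differed widely among themselves. Across the measured genes, the median Pearson correlation of log2(CPM + 1) was 0.38 between poor cells (10 pairs), 0.57 between rich cells (28 pairs) and 0.43 between a poor and a rich cell (40 pairs). The pairs ran from 0.29 to 0.66 within the poor side and from 0.29 to 0.72 within the rich side. Low values were not particular to the poor side, as rich cells 2 and 5 had medians of 0.38 and 0.43 with the other rich cells. Genes of 1 library share its depth, so these values are descriptions. Cells 8 and 9 had the highest sums of inhibitory genes, with 3089.5 and 1983 CPM, and the highest Pnoc, Vgf and Scg2. Cell 13 had 11.5 CPM of the inhibitory list and 7.195 CPM of the other cholinergic genes, together with 413 CPM of Slc17a7, 4258 CPM of glutamate receptors and the lowest share of oligodendrocyte markers of the 13. The 3 cholinergic genes together, tdTomato, Isl1 and Gata3 each held at most 1 read in it. The 12 olivocochlear transcription factors together, however, summed to 183 CPM in cell 13, inside the rich range of 28.9 to 831 CPM. Rich cells 7 and 11 also had 0 tdTomato reads, and lack of Isl1 reads was shared with part of the rich side.

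Cell 4 had another profile. It combined 3 cholinergic reads with 1922 CPM of Ache, 453 of Gata3, 1098 of Ecel1, 148 of Phox2a and 1411 CPM of Prph, an intermediate filament of motor and sensory neurons, and with 48 tdTomato reads. The summed level of the 8 brainstem motor neuron markers was 1430.2, 78.0, 78.6, 53.7 and 11.5 CPM in the poor and 19.9 to 1090.2 CPM in the rich cells, and nearly all of the value of cell 4 was Prph. Of the other members of that list, Mnx1 and Chodl held 1 read each in cell 4 and Uts2b held none. Cell 12 lay next to the threshold and was the most like the rich cells, with a median correlation of 0.67 with them, and its nearest MOC cell was cell 11, just across the threshold (0.79). Over all 31 libraries, LOC cell 6 was the nearest to 12 of the 13 MOC cells, the exception being cell 8, so no poor cell but 8 was nearest to a MOC cell. Cell 12 was also the nearest MOC cell to poor cells 8, 9 and 13 and to most rich cells. After thinning, cell 12 and LOC cell 6 held reads of the most genes of all libraries, at 17960 and 17863. The part of the number of genes with a read in these correlations was not tested.

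Of the 18 LOC libraries, 4 also held fewer than 10 cholinergic reads (LOC cells 7, 9, 14 and 16, with 5, 4, 0 and 0 reads). Their summed inhibitory level was 769, 201, 2.84 and 756 CPM, below the 3089.5 and 1983 CPM of MOC cells 8 and 9. Over all 18 LOC cells this sum ran up to 1199 CPM (median 412). The highest LOC sums were those of LOC cells 13 and 10, at 1199 and 1086 CPM, which held 584 and 243 cholinergic reads. Both exceeded the 1019 CPM of poor MOC cell 4. Across all LOC cells, Gad1 ran from 0 to 286 CPM (median 36.6) and Slc6a5 from 0 to 308 CPM (median 13.4), so that MOC cells 8 and 9 exceeded all 18 LOC cells in both genes. LOC cell 14, without any cholinergic read, held 2.84 CPM of inhibitory genes and 22.7 CPM of oligodendrocyte markers, against 11.5 and 363 CPM in MOC cell 13. Calca ran from 0 to 35892 CPM in LOC cells (median 951), with reads in 15 of 18.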

How the data were processed

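Single-cell Smart-seq2 libraries of 13 MOC and 18 LOC neurons were used as the authors deposited them, as raw counts of reads for 55421 mouse genes and 19 added sequences. The submitters' processing notes name bcl2fastq, STAR 2.5.2, DESeq2, edgeR, limma and the genome GRCm38 (mm10), and neither the counting tool nor its annotation is given in the sources used here. The deposited normalized values (signal) of 20784 genes equal the raw counts times 1 constant per library, and served as an alternative scale and for gene symbols. GENCODE M21 (GRCm38) gave coordinates for 55154 of 55421 genes. The kit keeps no strand.

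MOC libraries were split at 10 reads of Chat, Slc18a3 and Slc5a7 together. The split, the 23 gene lists and the genes were chosen with earlier results of these data known. Some list genes are not reported here and were left out of every list count, sum and median, which departs from the lists as fixed. Named genes were fixed by rule as the transmitter genes and Calca, and the fully separated genes. To these were added the widest differences among genes meeting the size rule with a read in every library of that side. Each other list gave up to 3 genes that met the size rule, from either side, by width of the difference. Other genes were named after their values were seen. CPM, means ± SD of log2(CPM + 1) and summed CPM with exact 95% Poisson intervals were computed in Python 3.11.15 (pandas 2.3.3, numpy 2.4.6, scipy 1.17.1). No molecular identifiers were used, so reads copied from 1 molecule by PCR cannot be told apart. The intervals treat every read as independent and cover neither PCR copies nor the spread between cells. The floor of 3 counts, 1.14 to 5.02 CPM per library, is likewise in reads and not in molecules. Pearson correlations of log2(CPM + 1) across measured genes compared libraries, and no 2 libraries were identical.

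No animal is named, each library is 1 cell and the outcome set the sides, so no test was made. Depth was 598028 to 2627174 counts per MOC library. The alternatives tried were other read thresholds, another pseudocount, TMM library sizes (edgeR 4.0.16 in R 4.3.3), size factors (DESeq2 1.42.0), thinning, summaries by sum or median, other gene filters, and sets without particular libraries.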

Additional observations from a re-analysis of the deposited data

Results flagged for a closer look

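In 178 groups of per-library values, each of 5 poor or 8 rich cells, 16 had a highest or lowest cell farther from the others than Dixon's 95% limit, which chance passes in about 1 of 20 groups. On the poor side, cell 4 stood apart with 1430 CPM of summed motor neuron markers. The other poor values that stood apart, in log2(CPM + 1), were 1.15 for Calcb, 3.43 for Grm7 and 4.92 for Hspb8 in cell 12 and 1.01 for Stk32a in cell 9. On the rich side, cell 7 stood apart with 2627174 counts, the deepest of the MOC libraries. Rich cell 2 was apart with 9.37 for Higd2a, 9.17 for Vps37a, 7.48 for Agk, 4.80 for Mal2 and, at the low end, 1.69 for S100b on the same scale. Rich cell 3 was apart with 6.46 for Tmem191, which overlaps Pi4ka on the other strand, and 5.28 for Gls2. Cell 5 was apart with 7.92 for Chrm1, cell 10 with 7.15 for Calcb and cell 11 with 1.04 for Gnpda1. A cell that alone holds reads on its side stands apart by construction, so the rate of 1 of 20 does not hold there. This covers Calcb, Grm7 and Stk32a on the poor side and Gnpda1 on the rich side. Of these values, those of Calcb, Stk32a and Gnpda1 lay under the floor of 3 counts.

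Of the 18 added sequences other than tdTomato, 11 held more reads in some MOC library than the limit of 3 counts. The highest counts were 227 for DsRed and 119 for mLamp3 in cell 7, 93 for CRE-ERT2 in cell 5, 44 for hspCas9 in cells 2 and 3, 32 for LacZ in cell 4 and 18 for Neo in cell 3. Those of beta-lac (15), FflyLucif (14), RVG (6) and AAV2 (5) were in cell 2, and that of GNAS-R201C-EE (5) was in cell 8. By side, CRE-ERT2 held 130 reads in the rich cells and 1 in the poor cells. The rich reads were 93, 31, 4 and 2 in cells 5, 3, 10 and 2. Neo held 32 reads in the rich and 2 in the poor cells. LacZ went the other way, with 27 in the rich and 43 in the poor cells. The separate CRE sequence held 4 and 1 reads, at most 3 in a library. The rich side also holds more cells and more counts. What gives the reads of the added sequences was not tested. DsRed and mLamp3 held reads in all 13 MOC libraries.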

How the results depend on the processing

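Of 30 alternatives, 13 left out 1 library each, and 4 were chosen after seeing the data (the authors' normalized values, totals without mitochondrial and oligodendrocyte genes, and sets without cells 11 and 12 or 8 and 9). Of 69 named genes that met the size rule, 24 met it in all 30, and 40 without each library in turn. Genes higher in poor cells numbered 704 with a pseudocount of 10, 2724 with summed counts alone and 2884 without cells 8 and 9, in place of 1695, and 1273 to 1985 without single libraries. Genes higher in rich cells numbered 3868 with the threshold at 5 reads, 3056 with 10 CPM as the threshold and 881 with a pseudocount of 10, in place of 2034, and 1834 to 2904 without single libraries. Genes fully apart numbered 208, 31 and 60 with thresholds of 5 reads, 50 reads and 10 CPM, 14 with TMM sizes, 10 with DESeq2 size factors, 188 without the 3 libraries highest in microglia markers (cells 7, 8 and 12), 22 without those over 10% oligodendrocyte markers (cells 6 and 7), 3 on totals without mitochondrial and oligodendrocyte genes, 78 without cells 11 and 12, 157 without cells 8 and 9, and 7 to 63 without single libraries, in place of 6. Fewer cells on a side make separation easier by construction, and other causes were not tested.

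The sign of a difference changed in 67 of 2340 gene values, 54 of them of 8 genes that did not meet the size rule and 13 of genes that did. Those 13 were as follows. With the threshold at 5 reads, Gad1 was at -0.094, Slc1a1 at -0.41 and Lhx1 at -0.23. At 50 reads Ly6c1 was at 1.07, and at 10 CPM Slc6a4 was at -0.074. With medians Ctss was at -0.11, and without the microglia-high libraries Gad1 was at -0.091 and Csf1r at -0.23. Without cells 8 and 9, Gad1 was at -0.76, Slc6a5 at -0.46, Lhx1 at -0.079 and Pnoc at -0.038. Calb2 ranged from -1.98 to 0.075 without single libraries, the positive value being without cell 13. The median difference of the glutamatergic transmitter list was -1.21 with the threshold at 5 reads, and that of the inhibitory transmitter list -0.61 there and without cells 8 and 9. Without single libraries it ranged from 0.11 to 1.48 for inhibitory and -0.46 to 0.63 for glutamatergic genes, Calca from -6.07 to -4.67, and the correlation within poor cells from 0.36 to 0.48. The cause of these reversals was not tested. No paired analysis was possible because the replicate numbers name single cells, not shared animals, and the sides hold different numbers. With 5 and 8 cells, and 3 counts worth up to 5.02 CPM in a library, low genes were not resolved.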
